A study of Homo sapiens with 6 samples.

Results

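Class I antigen presentation was described here through 9 genes, HLA-B, HLA-C, HLA-E, B2M, TAP1, TAP2, TAPBP, PSMB8 and PSMB9, which were taken by gene symbol from the deposited table of counts. All 9 were found among the 16000 genes listed for every library, and all 9 passed the filter on low counts, which left 14233 genes. The study sequenced RNA from human lung adenocarcinoma cell lines, 1 library per line, to set parental lines beside lines made resistant to EGFR tyrosine kinase inhibitors. PC-9 and HCC827, established lines with activating EGFR mutations, were the parents. Each had 2 resistant lines, PC-9GR and PC-9ER for PC-9, and HCC827GR and HCC827ER for HCC827; 1 label reads HCC82GR and was taken as HCC827GR. RPMI-1640 medium with fetal bovine serum was used for all 6 lines, and ribosomal RNA was removed before stranded sequencing of total RNA. The meaning of GR and ER, whether a resistant line is 1 clone and whether drug was in the medium at harvest are not given in the sources used here.

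Class I molecules show peptides from a cell's own proteins to CD8 T cells. The immunoproteasome, a proteasome whose catalytic subunits include PSMB8 and PSMB9, cuts proteins into peptides, and the TAP1 and TAP2 transporter carries these into the endoplasmic reticulum. There tapasin, the product of TAPBP, holds the transporter and the empty class I molecule together while a peptide is loaded onto a heavy chain (such as HLA-B, HLA-C or HLA-E) paired with the light chain B2M. Tumour cells of the lung are known to vary widely in the level of these genes, many of which respond to interferon and NF-kB signalling.

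The libraries held 14529331 to 17832869 estimated counts, and 14473 to 14923 genes had a count. The lung lines carried epithelial keratins, and the T cell markers CD3D and CD3E had at most 1 count in any library. A leukocyte marker list of 10 measured genes summed to between 34.8 CPM (PC-9GR) and 255 CPM (PC-9), where CPM is counts scaled to a library total of 1000000, and most of that sum came from LAPTM5 (222 CPM in PC-9) and CD68 (25.7 CPM in PC-9). The library labelled PC-9GR stood apart from its labelled parent. Its Spearman correlation with PC-9 over genes was 0.825, below that between PC-9GR and HCC827 (0.861) and below the 0.919 to 0.970 of the other resistant lines with their parents. In it 199 genes with at least 10 CPM in PC-9 were at 3 counts or fewer, against 3 to 25 such genes in the other pairs. EPCAM, an epithelial adhesion molecule, was at 384 CPM in PC-9, 1.91 CPM in PC-9GR and 406 CPM in PC-9ER. Results that rest on PC-9GR are therefore given beside those of the other lines. HCC827ER differed in another way, with 16.1% of its counts on 83 ribosomal protein genes, where the other libraries had 5.85% to 8.50%. Its ratios to HCC827 also fell along transcript length more steeply than those of the other pairs, as described further on.

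The heavy chain HLA-B, a classical class I molecule (chromosome 6, 31353872 to 31357187, minus strand, GRCh38), varied most of the 9 genes, by 27.2-fold between the lowest and the highest library. Its level was 51.7 CPM in PC-9, 11.4 CPM in PC-9GR, 61.8 CPM in PC-9ER, 58.7 CPM in HCC827, 74.5 CPM in HCC827GR and 310.2 CPM in HCC827ER. PC-9GR was the low library and HCC827ER the high one, while PC-9, HCC827 and PC-9ER had neighbouring counting intervals that overlapped. HLA-B in PC-9GR stood at 0.220 of its PC-9 level (95% exact interval 0.188 to 0.257), and in HCC827ER at 5.28 times its HCC827 level (4.91 to 5.69). Such intervals cover counting error only, since the reads carry no molecular identifiers and each line had 1 library. In the remaining resistant lines the HLA-B ratio to the parent was 1.20 (PC-9ER, 1.09 to 1.31) and 1.27 (HCC827GR, 1.16 to 1.39).

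HLA-C, the second classical heavy chain among the 9 (chromosome 6, 31268749 to 31272086, minus strand), was at 159 CPM in PC-9, 73.6 in PC-9GR, 196 in PC-9ER, 159 in HCC827, 121 in HCC827GR and 339.6 in HCC827ER. The extremes were the same libraries as for HLA-B, and the parental lines had overlapping counting intervals. The HLA-C ratio to the parent was 0.464 in PC-9GR and 0.762 in HCC827GR, and it was 1.23 in PC-9ER and 2.14 in HCC827ER. HLA-E, a non-classical heavy chain that is recognised by the inhibitory NKG2A receptor of natural killer cells (chromosome 6, 30489467 to 30494205, plus strand), was at 125 CPM in PC-9, 98.4 in PC-9GR, 150.0 in PC-9ER, 76.1 in HCC827, 83.0 in HCC827GR and 203 in HCC827ER. It had the narrowest span of the 9 genes, 2.67-fold, with HCC827 and HCC827GR as its low libraries and overlapping counting intervals between those. In HCC827ER it was 2.67 times its parental level (2.50 to 2.86), and in the other resistant lines the HLA-E ratio lay between 0.785 and 1.20. The counts of HLA-B and HLA-C were not whole numbers in any of the 6 libraries, as happens when reads that match several near-identical genes are shared out, so the split of reads among heavy chains is uncertain.

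The promoter sequences of the heavy chains, which are shown because HLA-B and HLA-C had their lowest and highest levels in the same libraries, carry the same kinds of motif. They come from RefSeq (GRCh38.p14), which gave an entry for 8 of the 9 genes, and are written 5′ to 3′ on the gene's strand, trimmed to the stretch that holds the matches. Capitals mark matches, on either strand, to 4 motifs: the core of the interferon-stimulated response element (2 copies of GAAA with any 2 bases between them), an NF-kB site (GGGA, any base, T, any 2 bases, CC), TGACG (part of the cyclic AMP response element, as in the S-X-Y module bound by NLRC5 complexes) and CCAAT (bound by NF-Y). HLA-B spans chr6:31357221-31357366 and HLA-C spans chr6:31272134-31272294, both on the minus strand.
HLA-B: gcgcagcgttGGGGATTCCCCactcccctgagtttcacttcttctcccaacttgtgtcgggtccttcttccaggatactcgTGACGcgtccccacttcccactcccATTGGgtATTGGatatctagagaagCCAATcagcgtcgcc
HLA-C: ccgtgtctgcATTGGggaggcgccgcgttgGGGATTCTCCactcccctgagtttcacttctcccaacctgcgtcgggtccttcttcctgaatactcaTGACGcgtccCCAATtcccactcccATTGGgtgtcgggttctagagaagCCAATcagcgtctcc
Both windows hold a match to the NF-kB site, which in HLA-B reads on either strand as 2 overlapping matches, and 1 match to TGACG. Neither holds a match to the interferon response element core in the strict form searched, which needs both copies of GAAA complete. Over 35116 RefSeq promoter windows of 250 bases before the start, the NF-kB site occurs in 4.46%, TGACG in 21.2%, CCAAT in 32.0% and the interferon response element core in 3.02%. A match is a run of letters and no evidence that a factor was bound in these cells. A missing match to such a fixed pattern is likewise no evidence that a promoter lacks the element.

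The light chain B2M (chromosome 15, 44711487 to 44718877, plus strand), without which heavy chains do not reach the cell surface, is the member that lies outside chromosome 6. It was at 288 CPM in PC-9, 316 in PC-9GR, 511 in PC-9ER, 359 in HCC827, 491 in HCC827GR and 1545 in HCC827ER. HCC827ER was the high library and PC-9 the low one, and the counting intervals of PC-9ER and HCC827GR overlapped. The B2M ratio to the parent was 1.10 in PC-9GR (1.06 to 1.14), 1.77 in PC-9ER (1.71 to 1.84), 1.37 in HCC827GR (1.32 to 1.42) and 4.31 in HCC827ER (4.18 to 4.44). Unlike the HLA-B level, the B2M level was not lower in PC-9GR than in PC-9. The B2M promoter, which lies on another chromosome than the heavy chains, is shown for comparison (chr15:44711363-44711482, plus strand, GRCh38.p14, RefSeq, capitals as above).
B2M: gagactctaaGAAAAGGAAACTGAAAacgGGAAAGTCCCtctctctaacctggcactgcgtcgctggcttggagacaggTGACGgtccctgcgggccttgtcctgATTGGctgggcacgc
It holds at least 1 match to each of the 4 motifs, with 2 overlapping matches to the interferon response element core beside the match to the NF-kB site.

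**Figure D1:**
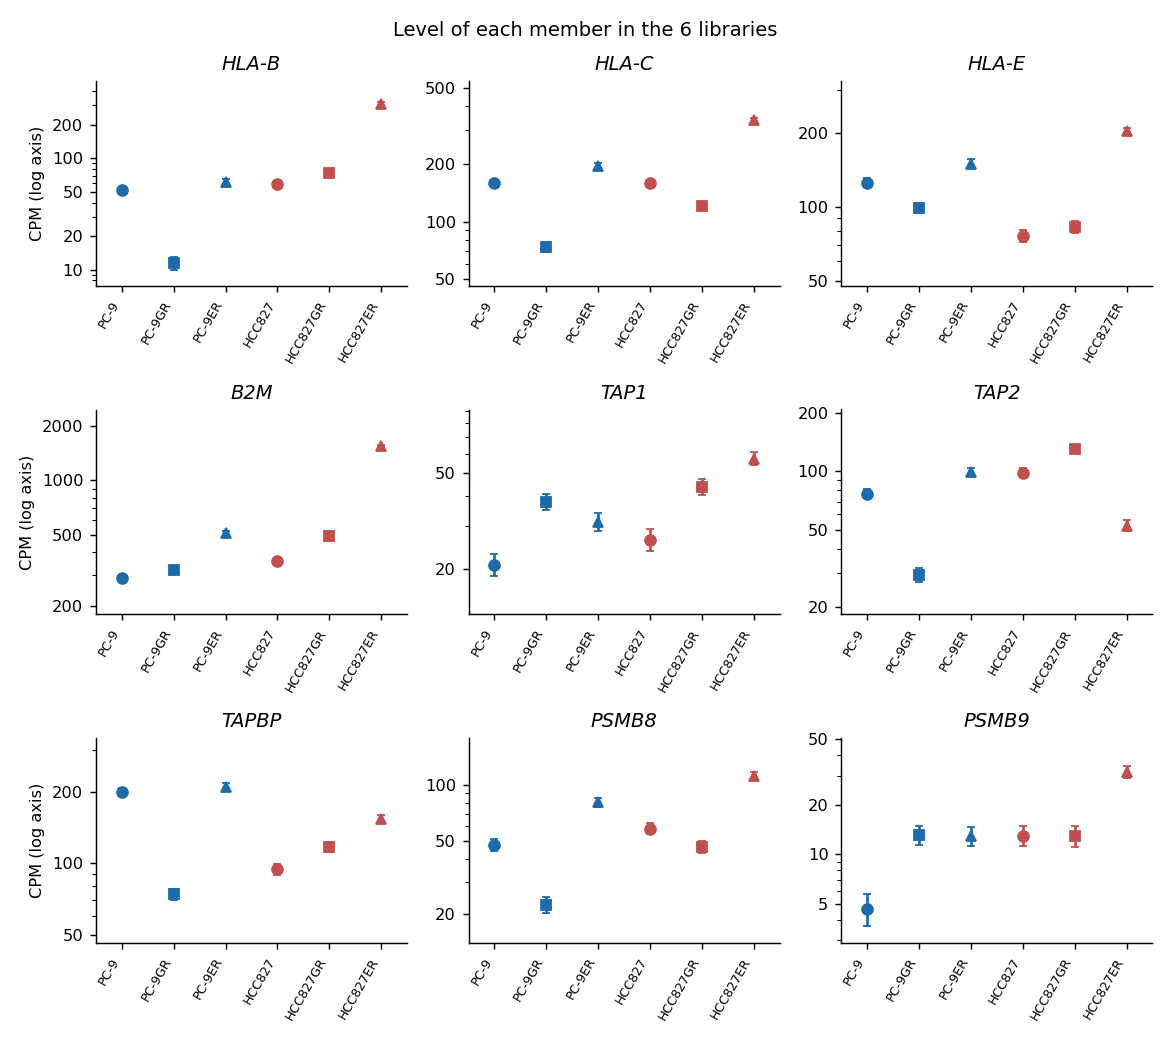
CPM of each of the 9 genes (log axis, scaled per panel) in the 6 libraries, blue for PC-9 and red for HCC827 lines, circles for parental, squares for GR and triangles for ER lines, with exact 95% Poisson intervals that cover counting error only. HCC827ER is the highest library for 7 genes and PC-9GR the lowest for 5.

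The transporter subunits did not share a pattern. TAP1 (chromosome 6, 32845209 to 32853978, minus strand) was at 20.7 CPM in PC-9, 37.8 in PC-9GR, 31.3 in PC-9ER, 26.4 in HCC827, 43.8 in HCC827GR and 57.1 in HCC827ER. Both parental libraries were lower than any resistant library except that the counting intervals of HCC827 and PC-9ER overlapped. The TAP1 ratio to the parent was 1.82 in PC-9GR (1.601 to 2.08), 1.51 in PC-9ER (1.32 to 1.73), 1.66 in HCC827GR (1.46 to 1.89) and 2.17 in HCC827ER (1.92 to 2.44). TAP2 (chromosome 6, 32821833 to 32838727, minus strand), which forms the transporter together with TAP1, was at 76.8 CPM in PC-9, 29.3 in PC-9GR, 99.2 in PC-9ER, 98.6 in HCC827, 130.3 in HCC827GR and 52.5 in HCC827ER. PC-9GR and HCC827ER were its low libraries, at 0.382 (0.345 to 0.423) and 0.532 (0.489 to 0.579) of their parents. TAP2 was the single gene of the 9 with a ratio below 1 in HCC827ER.

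Tapasin, TAPBP (chromosome 6, 33303573 to 33314212, minus strand), was at 199.9 CPM in PC-9, 74.2 in PC-9GR, 209.6 in PC-9ER, 94.5 in HCC827, 117 in HCC827GR and 153 in HCC827ER. The low library was again PC-9GR, at 0.371 of PC-9 (0.348 to 0.396), and the intervals of PC-9 and PC-9ER overlapped. In HCC827ER the TAPBP ratio to HCC827 was 1.62 (1.52 to 1.73), and in HCC827GR it was 1.24 (1.16 to 1.33). TAPBP counts were also not whole in any library. Short stretches of the TAP2 and TAPBP promoters are shown because matches to the interferon response element core lie in them (TAP2 chr6:32838760-32838807 and TAPBP chr6:33314079-33314108, both minus strand, GRCh38.p14, RefSeq, capitals as above).
TAP2: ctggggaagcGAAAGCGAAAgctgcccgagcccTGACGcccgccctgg
TAPBP: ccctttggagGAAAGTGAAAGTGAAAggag
TAP1 has 2 overlapping matches to that core as well. By the patterns searched, 4 of the 8 genes with an entry (B2M, TAP1, TAP2 and TAPBP) hold a match to it. A match to the NF-kB site is held by 4 (HLA-B, HLA-C, B2M and TAP1).

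The immunoproteasome subunits differed from each other in the PC-9 lines. PSMB8 (chromosome 6, 32840717 to 32844047, minus strand), which replaces the constitutive subunit PSMB5, was at 47.3 CPM in PC-9, 22.4 in PC-9GR, 80.4 in PC-9ER, 57.9 in HCC827, 46.4 in HCC827GR and 112.0 in HCC827ER. HCC827ER and PC-9ER were its high libraries and PC-9GR its low one, at ratios to the parent of 1.94 (1.78 to 2.10), 1.70 (1.55 to 1.85) and 0.474 (0.419 to 0.535). An antisense gene, PSMB8-AS1, overlaps it, and the sources used here do not say whether strand was used in the counting. PSMB9 (chromosome 6, 32854161 to 32859585, plus strand), which replaces PSMB6, was at 4.62 CPM in PC-9, 13.01 in PC-9GR, 12.93 in PC-9ER, 12.94 in HCC827, 12.89 in HCC827GR and 31.9 in HCC827ER. PC-9 alone was low, HCC827ER alone was high, and the 4 libraries between them had overlapping counting intervals. The PSMB9 ratio to the parent was 2.82 in PC-9GR (2.17 to 3.69), 2.801 in PC-9ER (2.16 to 3.67), 0.996 in HCC827GR (0.811 to 1.22) and 2.46 in HCC827ER (2.08 to 2.92). PSMB9 lies next to TAP1 on the opposite strand, and both were above PC-9 in PC-9GR while PSMB8 and TAP2, which lie on the far side of TAP1, were below it.

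**Figure D2:**
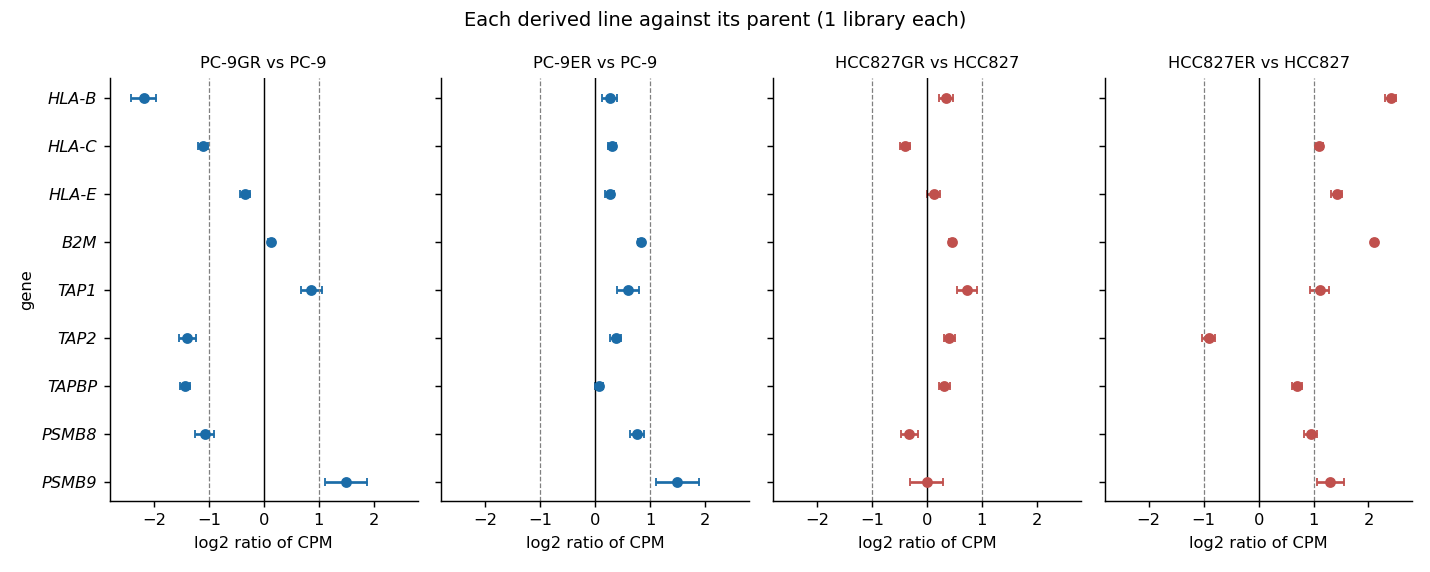
Log2 ratio of CPM of each resistant line to its parent for the 9 genes, 1 panel per pair, with exact 95% intervals for counting error and dashed lines at a 2-fold ratio. In PC-9GR 5 genes lie left of the lower line, and in HCC827ER 6 lie right of the upper line.

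Taken pair by pair, with a 2-fold ratio as the threshold, HCC827ER had the most members above its parent and PC-9GR the most below. These counts have no replicate check, and pairs of the same parent share its library. The ER libraries also come from another table of counts than the parents, so in their pairs line and table cannot be told apart. In HCC827ER, 6 of the 9 genes were at least 2-fold above HCC827 (HLA-B, HLA-C, HLA-E, B2M, TAP1 and PSMB9), against 11.3% of 12597 genes measured in that pair, and 0 were at least 2-fold below, against 28.3%. The members' median log2 ratio there was 1.11 and that of all genes was -0.35, and 8 of the 9 ratios were above 1, against 37.2% of genes. In PC-9GR, 5 of the 9 (HLA-B, HLA-C, TAP2, TAPBP and PSMB8) were at least 2-fold below PC-9 and 1 (PSMB9) above, against 20.9% of genes in either direction. The median log2 ratio was -1.07 for the members and -0.02 for all genes, with 3 of the 9 ratios above 1 against 49.4% of genes.

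PC-9ER and HCC827GR had few members past the 2-fold threshold. In PC-9ER all 9 ratios were above 1, against 52.0% of genes, but only PSMB9 reached 2-fold, against 5.49% of genes above and 7.61% below. Not all 9 stayed above 1 there once transcript length was allowed for, as described below. The median log2 ratio was 0.37 for the members and 0.03 for all genes. In HCC827GR 6 of the 9 ratios were above 1, against 55.2% of genes, and 0 genes reached 2-fold in either direction, against 8.16% of genes above and 8.80% below. The median there was 0.31 for the members and 0.06 for all genes.

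The HCC827ER ratios depended on how the libraries were scaled and on transcript length. With libraries scaled by TMM (the trimmed mean of M values, which sets the bulk of genes level), the median of all genes in that pair moved from -0.35 to -0.0011 on the log2 scale, and higher calls made up 48.1% of all 2-fold calls instead of 28.5%. Members at least 2-fold above HCC827 then numbered 8 instead of 6, against 17.7% of genes, with HLA-B at a log2 ratio of 2.75, B2M at 2.46 and TAPBP at 1.05. In the same pair the median log2 ratio of all genes fell along the length of the principal transcript, from 0.54 for genes of up to 1000 bases to 0.17, -0.16, -0.54 and, over 5000 bases, -0.97. The members have short transcripts of 782 to 2959 bases. Subtracting the median of each length class, a step chosen after the data were seen, left 4 members at least 2-fold above HCC827: HLA-B (log2 ratio 2.23), B2M (1.94), HLA-E (1.58) and TAP1 (1.27). HLA-C then stood at 0.93 and PSMB9 at 0.75. In PC-9GR the same step left 5 genes at least 2-fold below PC-9, with HLA-B at -2.38, and B2M passed from 0.13 to -0.07. The PC-9ER medians of all genes also fell with length, from 0.46 up to 1000 bases to -0.31 over 5000 bases. After the step HLA-B (-0.03) and TAPBP (-0.22) were below 0 in PC-9ER. HLA-C was at 0.02 there, and the remaining members were above that.

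**Figure D3:**
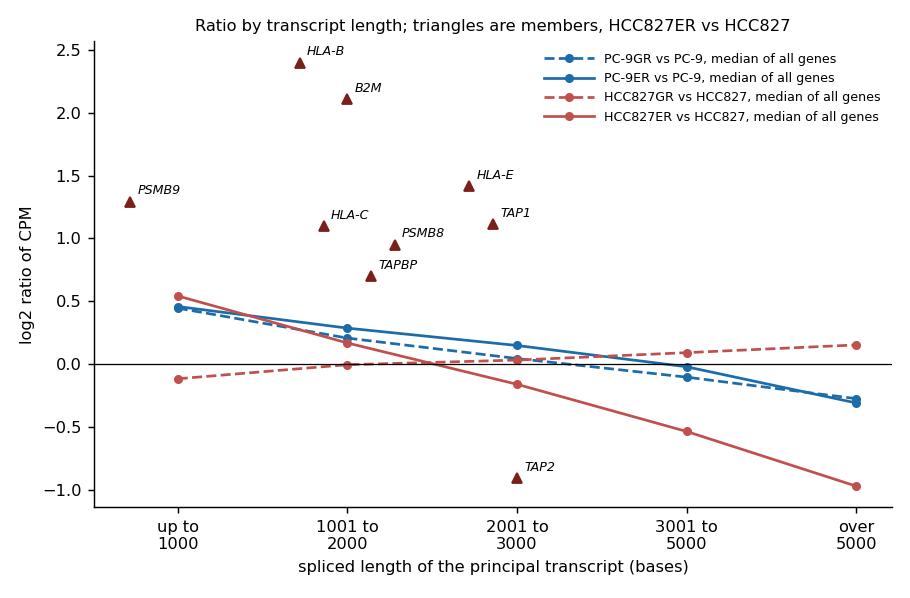
Median log2 ratio of CPM of all genes in 5 classes of transcript length for the 4 pairs (lines), with the members' log2 ratios for HCC827ER against HCC827 as triangles placed in their class. The HCC827ER line runs from 0.54 to -0.97, and all triangles but TAP2 lie above it.

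Most members had a higher level in the ER line than in the GR line of the same parent. PC-9ER was above PC-9GR in 7 of the 9 genes, against 51.5% of genes, and at least 2-fold above in 5 (HLA-B, HLA-C, TAP2, TAPBP and PSMB8), against 19.4%, while 0 were at least 2-fold below, against 19.5%. HCC827ER was above HCC827GR in 8 of the 9, against 35.9% of genes, and at least 2-fold above in 6 (HLA-B, HLA-C, HLA-E, B2M, PSMB8 and PSMB9), against 10.9%. TAP2 was at least 2-fold below in that pair, at a log2 ratio of -1.31, against 29.1% of genes. The ER line exceeded the GR line in both parents for 6 of 9 members (HLA-B, HLA-C, HLA-E, B2M, TAPBP and PSMB8), against 18.3% of genes. The exceptions were TAP1 and PSMB9, level or lower in PC-9ER than in PC-9GR, and TAP2, lower in HCC827ER than in HCC827GR. In the members' length classes the share of genes was 37.7% (up to 1000 bases), 28.8% (up to 2000) and 21.6% (up to 3000). Both ER libraries come from a second table of counts, so that ER lines and table cannot be told apart.

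A model over all 6 libraries with the parent of origin as a block gave fitted ER over GR log2 fold changes of 1.73 ± 0.39 (SE) for PSMB8, 1.65 ± 0.46 for HLA-C and 2.43 ± 0.75 for HLA-B. The edgeR quasi-likelihood p-values of these 3 genes were 0.00649, 0.0143 and 0.0216 before adjustment, and 3.84% of genes were higher in ER with an unadjusted p under 0.05. After Benjamini-Hochberg adjustment over 14233 genes, edgeR called none of the 9 members (adjusted p 0.708 to 0.910) and 0 genes in all, 0% of those tested, with 951 genes at an unadjusted p under 0.05. DESeq2 called the same 3 members higher in the ER lines, at adjusted p of 0.0135 (PSMB8), 0.0372 (HLA-C) and 0.0490 (HLA-B), where it called 1.54% of genes higher. All 9 fitted values were above 0, against 49.1% of genes, but those of TAP1 (0.25 ± 0.45), TAP2 (0.34 ± 0.72) and PSMB9 (0.76 ± 0.65) turned with a library left out. TAP1 was -0.27 without HCC827ER and -0.08 without HCC827GR, TAP2 was -0.55 without PC-9ER and -0.66 without PC-9GR, and PSMB9 was -0.01 without HCC827GR. Without PC-9GR, the library that stood apart, the fitted ER over GR values were 1.96 for HLA-B, 1.63 for HLA-C and 1.54 for PSMB8 on the log2 scale. HCC827GR was then the only GR library, so these values do not compare GR lines of both parents. No member was called with either GR library left out.

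For the comparison the study was built on, resistant against parental lines, no member passed the test. The fitted log2 fold change was 1.27 ± 0.61 (SE) for PSMB9, 1.11 ± 0.71 for B2M and 0.94 ± 0.40 for TAP1, all with an edgeR adjusted p of 0.997, and 0 of the 9 had an unadjusted p under 0.05. For TAP1 the unadjusted edgeR p was 0.0561. The other 6 values lay between -0.14 (TAP2) and 0.57 (HLA-B), each smaller than its SE, and 8 of 9 were above 0, against 54.0% of genes. The sign of 5 of them hung on single libraries. HLA-B was -0.49 without HCC827 and -0.18 without HCC827ER, HLA-C was -0.33 without HCC827ER, TAPBP was -0.48 without HCC827, PSMB8 was -0.10 without HCC827ER, and TAP2 was 0.13 without PC-9GR. Over all genes edgeR called 0 of 14233 (0%) here, with 350 at an unadjusted p under 0.05, and DESeq2 called 43. The p-values measure the spread between cell lines, since no line was sequenced again.

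**Figure D4:**
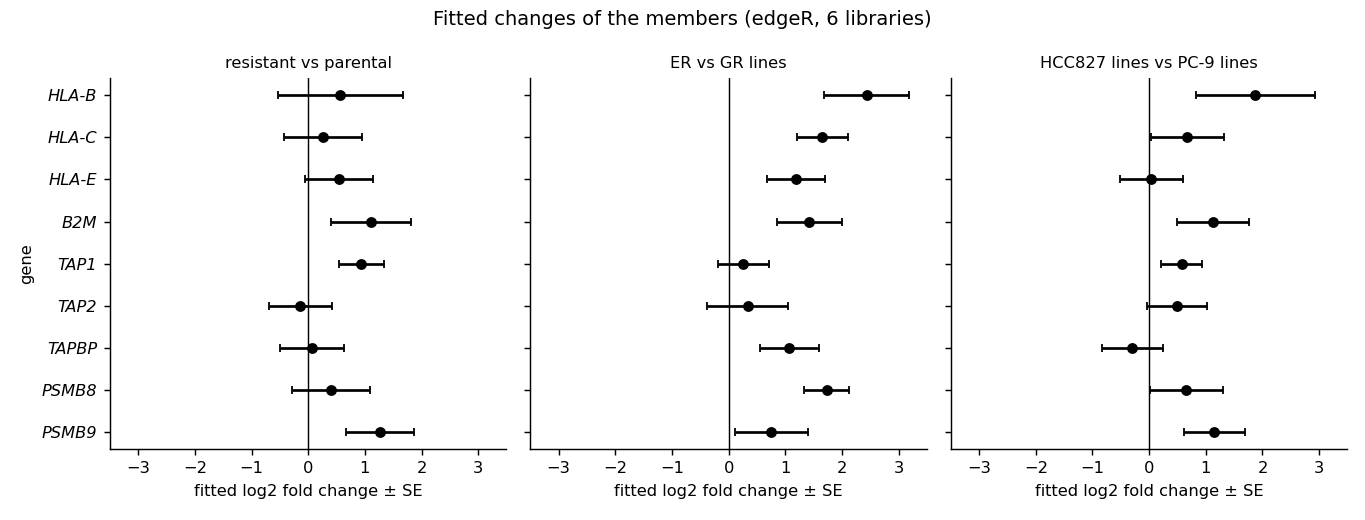
Fitted log2 fold change with its standard error for the 9 genes in 3 comparisons (edgeR, 6 libraries): resistant against parental, ER against GR, and HCC827 against PC-9 lines. No value passed the adjusted test, and the ER against GR values of HLA-B, HLA-C and PSMB8 lie farthest from 0 relative to their errors.

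Within each parent, and in the test of whether the parents' resistant lines differed in their change, edgeR called 0 members and 0 genes (0% in each of the 3 comparisons), with 132, 193 and 117 genes at an unadjusted p under 0.05. DESeq2 called 107 genes in PC-9 lines, 42 in HCC827 lines and 33 for the difference. The edgeR counts were 1223, 154 and 544 genes without PC-9ER, and 2, 161 and 10 without PC-9GR, again with no member called. For HLA-B the fitted change was -0.50 ± 1.33 in the PC-9 lines and 1.996 ± 1.49 in the HCC827 lines, and the difference of 2.49 ± 1.94 had an unadjusted edgeR p of 0.253. For B2M those changes were 0.53 ± 0.99 and 1.77 ± 1.06. For HLA-B, PC-9GR and PC-9ER lay on opposite sides of PC-9, and HCC827ER lay far above HCC827GR.

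By parent of origin, edgeR called 42 genes between HCC827 and PC-9 lines (0.295% of those tested) and none of the members, whose adjusted p ran from 0.331 (PSMB9) to 0.979 (HLA-E). Without PC-9GR 1292 genes were called, without PC-9ER 97 and without any other library 0, with no member among them. For none of the 9 genes did the 3 HCC827 libraries and the 3 PC-9 libraries form groups that did not overlap, whereas 26.5% of genes separated in that way. Instead 7 of 9 were highest in HCC827ER, against 13.8% of genes, the exceptions being TAP2 (highest in HCC827GR) and TAPBP (highest in PC-9ER). In the members' length classes the share of genes was 48.1% (up to 1000 bases, with PSMB9), 27.2% (up to 2000) and 15.8% (up to 3000). PC-9GR was the lowest library for 5 of 9 (HLA-B, HLA-C, TAP2, TAPBP and PSMB8), against 20% of genes.

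Ratios within a library, formed from CPM per kilobase of transcript, do not depend on library scaling. HLA-B made up 24.4% of the summed HLA-B and HLA-C level in PC-9, 13.3% in PC-9GR, 23.9% in PC-9ER, 26.9% in HCC827, 37.95% in HCC827GR and 47.6% in HCC827ER. The share was lowest and highest in the same libraries as the HLA-B level, which is in part built in because HLA-B is counted in the share. It also rests on the uncertain split of reads between the heavy chains. The ratio of B2M to the sum of HLA-B and HLA-C ran from 1.24 in PC-9 to 3.36 in PC-9GR, with HCC827 at 1.49, PC-9ER at 1.79, HCC827ER at 2.15 and HCC827GR at 2.27. It was higher in each resistant line than in its parent.

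The TAP2 to TAP1 ratio, per kilobase, split the libraries into those between 3.52 and 4.43 (PC-9, PC-9ER, HCC827 and HCC827GR) and those near 1, PC-9GR at 0.920 and HCC827ER at 1.09. The immunoproteasome subunits PSMB8, PSMB9 and PSMB10 made up 12.4% of the transcripts of the catalytic subunits in PC-9, 8.53% in PC-9GR, 12.6% in PC-9ER, 12.1% in HCC827, 10.7% in HCC827GR and 18.1% in HCC827ER. The constitutive counterparts thus exceeded them in every library. For the exchange pair PSMB8 and PSMB5 the ratio was 0.507 in PC-9, 0.132 in PC-9GR, 0.626 in PC-9ER, 0.209 in HCC827, 0.175 in HCC827GR and 0.315 in HCC827ER. For PSMB9 and PSMB6 it ran from 0.0379 in PC-9 to 0.142 in HCC827ER. The ratio of PSMB8 to PSMB5 was therefore higher in PC-9 than in HCC827ER, while that of PSMB9 to PSMB6 was lowest in PC-9.

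**Figure D5:**
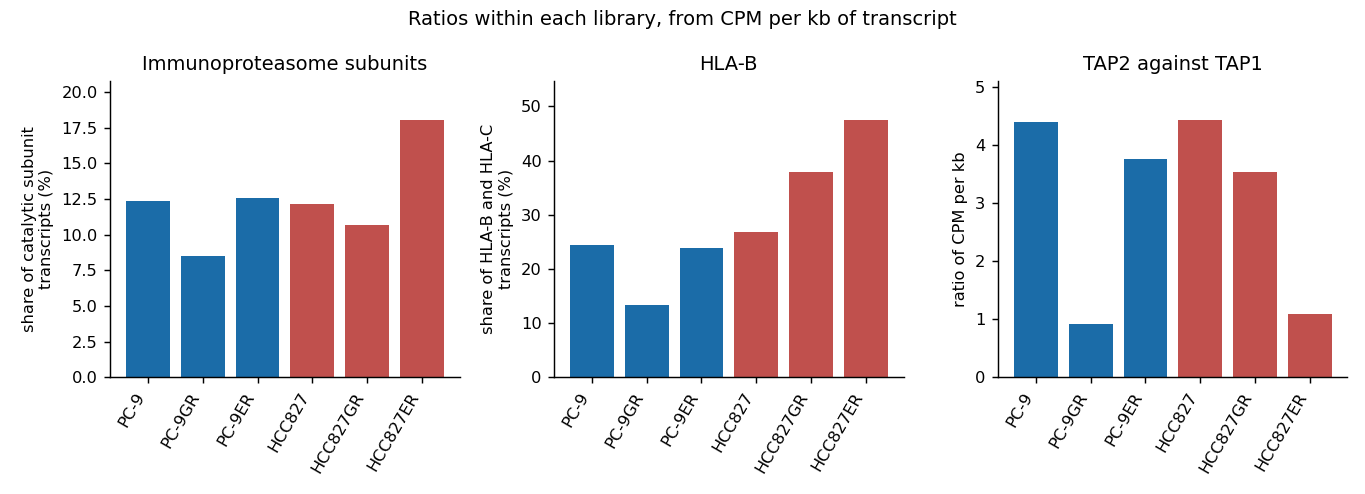
Bars from 0 for each library, from CPM per kilobase: immunoproteasome share of the catalytic subunits (%), HLA-B share of the sum of HLA-B and HLA-C (%), and the TAP2 to TAP1 ratio, with no error bars because each line had 1 library. PC-9GR is lowest in all 3 panels and HCC827ER is highest in the first and second (18.1% and 47.6%) and near PC-9GR in the third. The HLA-B share rests on the uncertain split of reads between the heavy chains.

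Other genes of the same pathway were taken from a list of 16, of which 15 passed the filter (HLA-G did not), and none passed the adjusted edgeR test in any comparison. At an unadjusted edgeR p under 0.05 there were 5 of 15 between HCC827 and PC-9 lines (against 17.8% of all genes tested), 1 between ER and GR lines (against 6.68%), and 0 in the other comparisons. In HCC827ER 2 of the 15 were at least 2-fold above HCC827 (HLA-F among them), against 11.3% of genes, and 1 below (ERAP2), against 28.3%. Their median log2 ratio was 0.19, against 1.11 for the 9 members. In PC-9GR 1 was above (HLA-F) and 4 below (TAPBPL, ERAP1, ERAP2 and CALR), against 20.9% of genes in either direction, with a median of -0.03. ERAP2, an aminopeptidase that trims peptides in the endoplasmic reticulum, was at 153 CPM in PC-9, 3.76 in PC-9GR, 119.5 in PC-9ER, 5.64 in HCC827, 6.74 in HCC827GR and 2.31 in HCC827ER. PC-9GR thus lay with the HCC827 libraries for this gene. PSME1, a subunit of the proteasome activator, was at 76.9, 116, 104, 101, 102 and 173 CPM in that order, and PSMB5 at 107, 195, 148, 319, 305 and 409.7 CPM.

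Regulators of class I genes, a list of 11, had 0 genes past the adjusted edgeR test in any comparison, and 1 (RFXANK, between ER and GR lines, against 6.68% of all genes) at an unadjusted p under 0.05. NLRC5, a transactivator of class I promoters, was at 23.9 CPM in PC-9, 6.0 in PC-9GR, 35.5 in PC-9ER, 12.1 in HCC827, 18.0 in HCC827GR and 18.5 in HCC827ER. NLRC5 was lowest in PC-9GR, as were HLA-B and HLA-C. In HCC827ER, where those were highest, its CPM was close to that in HCC827GR, while the median log2 ratio of all genes between these libraries was -0.38. Against HCC827 the NLRC5 log2 ratio in HCC827ER was 0.61, where the median of all genes was -0.35. For genes with transcripts over 5000 bases, NLRC5 among them, that median was -0.97. IRF1, an interferon-induced transcription factor, lay between 27.5 CPM (PC-9) and 53.4 CPM (HCC827). EZH2, a methyltransferase of Polycomb complex, was at 70.4 CPM in HCC827 and 10.1 in HCC827ER, NFKB1 at 58.1 and 32.9, and RFX5, part of the complex that binds the X box, at 48.0 and 53.5.

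Interferon receptors and signalling genes (14 measured) and interferon-stimulated sentinel genes (17 measured, 14 tested) likewise had 0 called by edgeR in every comparison. At an unadjusted edgeR p under 0.05 there were 2 and 6 of them between HCC827 and PC-9 lines, where 17.8% of all genes tested reached that level, and 1 in each list between ER and GR lines, where 6.68% did. Against HCC827, HCC827ER had 3 sentinels at least 2-fold above and 3 below among the 13 measured in that pair. The shares of all genes were 11.3% above and 28.3% below. The median log2 ratio of the sentinels was -0.23 and that of all genes -0.35, and 6 of the 13 ratios were above 1, against 37.2% of genes. IFI6 was at 7.98 CPM in HCC827 and 27.99 in HCC827ER, IFIT1 at 6.81 and 10.1, and GBP1 at 17.3 and 14.4. In PC-9GR 4 of 11 sentinels were at least 2-fold above PC-9 and 4 below, against 20.9% of genes in either direction. The median there was -0.38 for the sentinels and -0.02 for all genes. GBP1 was at 0.336 CPM there against 23.4 CPM in PC-9, and IFIT1 at 7.57 against 1.48. Of the 14 signalling genes, 1 was at least 2-fold above HCC827 in HCC827ER and 3 below, against 11.3% and 28.3% of genes. SOCS3 was at 23.7 CPM in HCC827 and 46.3 in HCC827ER, IRF9 at 17.3 and 22.3, and IFNAR1 at 58.8 and 28.1. In PC-9GR 4 of the 14 were at least 2-fold above PC-9 and 1 below, against 20.9% of genes in either direction. SOCS3 was at 6.33 CPM in PC-9 and 20.2 in PC-9GR, IRF9 at 5.86 and 14.1, and IFNAR1 at 71.5 and 67.2. Past the 2-fold threshold the sentinels thus lay on both sides of the parent in both lines where the class I members were farthest from it. In the fit of ER against GR lines, 11 of the 14 tested sentinels were above 0, against 49.1% of genes. Their median log2 fold change there was 1.19, as was that of the members, against -0.02 for all genes. Between HCC827 and PC-9 lines 11 of 14 were above 0 as well, with a median of 1.36 against -0.02 for all genes. The part of interferon signalling in the class I values was not tested.

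Of 13 class II genes listed, edgeR called 0 of the 5 tested in any comparison, and 0 had an unadjusted p under 0.05. HLA-DRA and HLA-DRB1 had at most 4 counts in any library, and CD74, the invariant chain, at most 13. HLA-DMB, which helps to load class II peptides, was at 0 in PC-9 and PC-9ER, 8.24 CPM in PC-9GR, 3.03 in HCC827, 2.27 in HCC827GR and 14.2 in HCC827ER, and the protease CTSS was at 41.2 CPM in PC-9GR against 6.27 in PC-9. These were the 2 of 3 measured class II genes at least 2-fold above PC-9 in PC-9GR, against 20.9% of genes. In HCC827ER HLA-DMB and HLA-DMA (8.44 CPM against 2.34 in HCC827) were at least 2-fold above the parent, against 11.3% of genes. CTSS was at least 2-fold below it (6.30 against 19.0 CPM), against 28.3% of genes. Among stress ligands, which bind the activating NKG2D receptor, MICA was at 31.9 CPM in PC-9GR but at 2.72 in PC-9 and 2.38 in PC-9ER, and MICB at 16.4, 52.4 and 36.4 CPM in the same libraries. MICA in the HCC827 lines lay between 15.0 and 20.7 CPM.

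Marker genes of other cell types were summed in each library. The leukocyte list summed to 65.7 CPM in HCC827, 104 in HCC827GR and 131 in HCC827ER, most of it CD68 (56.7, 94.1 and 127 CPM), with CD3D and CD3E at 0 in HCC827ER. Endothelial markers summed to 0.964 CPM or less in the HCC827 libraries and in PC-9GR, but PC-9 reached 220.0 CPM and PC-9ER 55.7 CPM, through CDH5 (151 and 32.8 CPM) and PECAM1 (68.7 and 22.7 CPM). Fibroblast markers summed to 2.60 to 41.2 CPM, nearly all COL1A1. All 9 epithelial markers had fitted values below 0 for resistant against parental lines, where 54.0% of genes were above 0, with 0 called by edgeR. Within the PC-9 lines 3 of them were above 0 and 6 below, and within the HCC827 lines all 9 were below. EPCAM was at 460.3 CPM in HCC827 and 107 in HCC827ER, KRT19 at 2159 and 583, and NKX2-1, a lung lineage factor, at 15.2 and 0. NKX2-1 was at or under 1.16 CPM in all PC-9 lines. The part of these markers, of the ribosomal protein share and of transcript length in the class I values was not tested, and in bulk RNA a higher level in every cell cannot be told apart from a higher level in some cells.

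The 9 genes were also compared with each other and with all genes by the shape of their levels over the 6 libraries. The mean log2 CPM of the members was 6.03 in PC-9, 5.47 in PC-9GR, 6.57 in PC-9ER, 6.16 in HCC827, 6.34 in HCC827GR and 7.29 in HCC827ER. Pearson's r of a member with the mean of the other members was 0.93 for PSMB8 and HLA-B, 0.91 for HLA-C and 0.88 for B2M, but 0.63 for HLA-E, 0.52 for PSMB9, 0.46 for TAPBP, 0.45 for TAP1 and 0.16 for TAP2. These describe 6 points that include HCC827ER and PC-9GR as extremes. Among 7823 other genes with enough level and spread, the 6 most alike to the mean of the members were CFB (complement factor B, r = 0.988), RPS25 and RPL35A (ribosomal proteins, both 0.986), DRAM2 (0.980), MYL6B (0.978) and RPL5 (0.977). CFB was at 35.6 CPM in PC-9, 4.93 in PC-9GR, 123 in PC-9ER, 48.7 in HCC827, 95.8 in HCC827GR and 664 in HCC827ER. Without PC-9GR only 1 of these 6 genes was still among the 6 most alike.

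All members but B2M lie on chromosome 6, and the genes around them, 110 with a start between the outermost members or within 250 kilobases of them, gave a local reference. In HCC827ER 20 of 90 measured neighbours were at least 2-fold above HCC827 (22.2%, against 11.3% of all genes) and 11 below (12.2%, against 28.3%), with a median log2 ratio of 0.13 against 1.10 for the members on that chromosome. In PC-9GR 5 of 86 neighbours were at least 2-fold above PC-9 (5.81%) and 31 below (36.0%), each against 20.9% of all genes, with a median of -0.65 against -1.09 for those members. In PC-9ER and HCC827GR the neighbours' medians were 0.10 and 0.02. The neighbours with the largest mean ratios were SFTA2, LTB, HLA-DMB, TNXB and DDR1. DDR1, a collagen receptor, was at 392 CPM in PC-9, 82.4 in PC-9GR, 249.6 in PC-9ER, 119 in HCC827, 22.2 in HCC827GR and 114 in HCC827ER, and LTB, a cytokine of the tumour necrosis factor family, was at 50.1 CPM in PC-9 and 0.785 in PC-9GR. SFTA2 was at 105 CPM in HCC827 and at 0.200 and 8.10 CPM in HCC827GR and HCC827ER, and TNXB at 14.9 CPM in PC-9 and 2.30 in PC-9GR.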

How the data were processed

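The deposited file holds 2 tables side by side, 1 with the parental and GR libraries (16854 genes) and 1 with the ER libraries (16306 genes), which were joined by gene ID (16000 genes in both). The values are the authors' expected counts per gene, which were estimated upstream and are not whole for 13.4% to 14.6% of genes. Per the submitters' processing notes, HISAT2 2.0.4, GRCh38.p13 and Cuffdiff were used; the counting program, and any use of strand, are not given in the sources used here. Counts were rounded to whole numbers for the tests, for CPM and for the ratios and intervals formed from them. 0 columns of values belonged to no sample.

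Tests used edgeR 4.0.16 (quasi-likelihood, robust, TMM scaling, low-count filter, Benjamini-Hochberg adjustment over 14233 genes, threshold 0.05) in R 4.3.3, with 3 residual degrees of freedom for resistant against parental lines and 2 for changes within a parent. DESeq2 1.42.0, limma 3.58.1 (voom), other scaling, no low-count filter and leaving out each library were alternatives, and the fits were tested on simulated data. Single pairs were called by size alone: a 2-fold ratio of CPM (prior count 2 for log2 ratios of pairs) with at least 1 CPM in 1 library. Intervals are 95% exact Poisson (levels) or binomial (ratios). Gene positions and lengths come from GENCODE 29 (GRCh38), principal transcript, with a length for 96.6% of genes. All 9 members were described. From other lists up to 3 genes with the largest mean pair ratio and at least 10 CPM were named, NLRC5 and IRF1 always, besides the 6 genes most alike and 5 neighbours. The members, lists and tests were chosen with earlier results of these data known. RFXANK and the genes named for the 2-fold counts of the other pathway genes, for the low counts of marker genes and as absent markers were named after their values were seen. Some genes of these lists are counted but not reported here by name.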

Additional observations from a re-analysis of the deposited data

How the results depend on the processing

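No paired analysis was possible because each line has 1 library and the labels number no replicates; the parent of origin was a block in the fits across parents. DESeq2 called more genes than edgeR in each comparison: 43 for resistant against parental lines, 1719 for HCC827 against PC-9 lines, 107 within PC-9, 42 within HCC827, 33 for the difference between parents and 348 for ER against GR, the last with 3 members. The cause was not tested. Without the low-count filter edgeR called 79 genes instead of 42 between HCC827 and PC-9 lines. Some fitted values near 0 changed sign: TAPBP for resistant against parental lines (-0.0059 by voom, -0.018 without TMM), HLA-E for HCC827 against PC-9 lines (-0.10 in both), and, within PC-9, HLA-E (-0.0094 by DESeq2, -0.026 by voom, -0.013 without TMM) and PSMB8 (-0.14 by voom).

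With each library left out in turn, the lone sample of a group being assumed to vary like the others, no member was called in any comparison. The number of genes called ran from 0 to 1482 for ER against GR lines (the highest without HCC827GR), 0 to 161 within HCC827 (without PC-9GR), 0 to 1292 for HCC827 against PC-9 lines (without PC-9GR), 0 to 1223 within PC-9 (without PC-9ER) and 0 to 544 for the difference (without PC-9ER), and stayed at 0 for resistant against parental lines. Fitted values of 28 combinations of member and comparison changed sign in this way, with these ranges on the log2 scale.
For resistant against parental lines they were HLA-B -0.49 to 1.998, HLA-C -0.33 to 0.80, TAP2 -0.61 to 0.13, TAPBP -0.48 to 0.71 and PSMB8 -0.10 to 0.72. For HCC827 against PC-9 lines they were HLA-C -0.16 to 1.01, HLA-E -0.71 to 0.42, TAPBP -0.76 to 0.10 and PSMB8 -0.023 to 1.23. Within PC-9 they were HLA-B -2.14 to 0.25, HLA-C -1.07 to 0.30, HLA-E -0.31 to 0.26, TAP2 -1.35 to 0.37, TAPBP -1.39 to 0.066 and PSMB8 -1.04 to 0.76. Within HCC827 they were HLA-C -0.43 to 1.45, TAP2 -0.55 to 0.36, PSMB8 -0.36 to 1.31 and PSMB9 -0.047 to 1.66. For the difference between parents they were HLA-C -0.18 to 1.86, B2M -0.10 to 1.93, TAP1 -0.046 to 0.71, TAP2 -0.41 to 1.32, PSMB8 -0.46 to 1.74 and PSMB9 -1.53 to 0.15. For ER against GR lines they were TAP1 -0.27 to 0.73, TAP2 -0.66 to 1.498 and PSMB9 -0.012 to 1.66.

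The counts of members past 2-fold in each pair moved by at most 1.5 times under a prior count of 0.5, TMM scaling, a minimum of 10 CPM and the length class correction: the 6 members higher in HCC827ER became 8 with TMM scaling and 4 with the length correction. Over all genes in that pair the counts moved further, from 1421 to 2232 higher with TMM scaling and from 3569 to 1897 lower with the length correction. Limits of the design are 1 library per line, PC-9GR apart from its labelled parent, and ER libraries in a separate table. The lowest count of a member was 78 (PSMB9 in PC-9).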
